A study of Mus musculus with 15 samples.

Results

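The small nuclear and nucleolar RNAs described here are the genes that the deposited count table types as snoRNA, scaRNA or snRNA and that had a summed count of at least 50 over all 15 libraries. They number 161 of 2943 rows of these 3 types in a table of 55536 genes, and 1819 of the 2943 rows had no count in any library. The 161 comprised 62 of 1507 snoRNA rows, 9 of 51 scaRNA rows and 90 of 1385 snRNA rows. They were chosen by this summed count, so their abundance over all libraries is a description. The choice did not use the difference between groups, although an RNA near the threshold can reach it through counts in a single group.

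Whole blood of male C57Bl/6 mice aged 10 months was profiled by bulk sequencing of total RNA, 1 library per animal. The 8 TBT animals were offspring of mothers that drank water with tributyltin, an organotin compound, at 0.5 mg per kg per day (3.07 µM) until weaning, and the 7 vehicle animals were offspring of control mothers. All animals were wild type, and 1 vehicle animal, vehicle 3, is labelled with a liver tumor, with no tumor status given for the others. The study concerns endotypes of liver tumor risk, and these samples bear on the blood of adult offspring after exposure in early life had ended.

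Small nucleolar RNAs guide chemical changes of ribosomal RNA. Those with C and D boxes direct 2'-O-methylation with fibrillarin, and those with H and ACA boxes direct pseudouridylation with dyskerin. Cajal body RNAs (scaRNAs) do the same for spliceosomal RNAs. Spliceosomal RNAs (snRNAs) pair with splice sites and with each other to form the catalytic core of the spliceosome. In vertebrates most guide RNAs are cut out of introns of host genes, whereas U1, U2 and other snRNAs have promoters of their own. The mouse genome also holds many copies and pseudogenes of snRNAs, above all of U6, which retrotransposition placed inside other genes. Mature red cells have no nucleus, so in blood these RNAs come mainly from nucleated white cells and their precursors. In bulk samples fewer cells of a type and less RNA per cell cannot be told apart.

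The RNAs on which the results turn are shown first, from the GENCODE M21 transcripts (build GRCm38), 5' to 3' as DNA letters. Snord17 and Scarna6 are shown because their estimates were among the lowest in TBT, and Gm25395 because it shares its host gene with Scarna6. Capitals mark the C box TGATGA within the first 25 bases and the D box CTGA within the last 15 bases. Scarna13 had the smallest p of all, and its capitals mark ACA within the last 8 bases. The motifs were sought on the RNA strand only.
Snord17, chr2:144265979-144266216, minus strand: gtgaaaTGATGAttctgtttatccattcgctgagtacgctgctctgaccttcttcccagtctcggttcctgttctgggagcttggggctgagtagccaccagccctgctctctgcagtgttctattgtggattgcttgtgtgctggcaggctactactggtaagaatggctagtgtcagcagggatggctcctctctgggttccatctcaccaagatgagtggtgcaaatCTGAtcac
Scarna6, chr1:87784556-87784820, plus strand: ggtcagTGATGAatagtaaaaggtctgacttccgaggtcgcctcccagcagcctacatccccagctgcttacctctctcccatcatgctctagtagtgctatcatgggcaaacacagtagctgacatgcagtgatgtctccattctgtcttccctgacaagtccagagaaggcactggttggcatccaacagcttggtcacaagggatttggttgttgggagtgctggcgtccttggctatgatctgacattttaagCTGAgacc
Gm25395, chr1:87776938-87777209, plus strand: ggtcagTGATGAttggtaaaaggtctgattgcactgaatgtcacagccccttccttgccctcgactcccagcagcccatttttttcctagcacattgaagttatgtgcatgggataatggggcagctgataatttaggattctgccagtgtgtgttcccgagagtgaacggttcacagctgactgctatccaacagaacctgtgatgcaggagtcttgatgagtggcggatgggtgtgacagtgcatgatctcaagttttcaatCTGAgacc
Scarna13, chr12:105031075-105031349, minus strand: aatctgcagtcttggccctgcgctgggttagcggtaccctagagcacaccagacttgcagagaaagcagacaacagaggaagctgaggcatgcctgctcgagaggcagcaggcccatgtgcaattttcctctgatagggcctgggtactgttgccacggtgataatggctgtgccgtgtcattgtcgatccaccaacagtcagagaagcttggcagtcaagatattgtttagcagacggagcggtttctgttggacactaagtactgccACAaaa

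Both C and D boxes were present in 12 of the 62 snoRNAs (19.4%, against 20.3% of all 1507 snoRNA rows) and in 4 of the 9 scaRNAs (44.4%, against 9.8% of all 51 scaRNA rows). ACA near the end was present in 34 of the 62 snoRNAs (54.8%, against 46.8% of all snoRNA rows) and in 2 of the 9 scaRNAs (22.2%, against 68.6% of all scaRNA rows). Among the snRNAs, 11 of 90 held the letters ATTTTTG, a form of the site bound by the ring of Sm proteins, which was present in 3.33% of the 1383 snRNA rows with a sequence. A match of letters does not show a functional box.

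The next pairs are shown because a difference of a few bases decides which copy a read can be given to. Gm23971 is identical to the annotated U2 gene Rnu2-10, and Gm25939 is 98.4% identical to it. Counted from 1 at the 5' end, the changes that turn Gm23971 into Gm25939 were T69C, C78T and G109C, in capitals in both.
Gm25939, chr1:72255008-72255198, plus strand: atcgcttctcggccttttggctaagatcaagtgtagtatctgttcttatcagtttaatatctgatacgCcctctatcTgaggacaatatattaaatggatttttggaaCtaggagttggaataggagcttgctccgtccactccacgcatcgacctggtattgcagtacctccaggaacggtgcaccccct
Gm23971, chr11:101645740-101645930, minus strand: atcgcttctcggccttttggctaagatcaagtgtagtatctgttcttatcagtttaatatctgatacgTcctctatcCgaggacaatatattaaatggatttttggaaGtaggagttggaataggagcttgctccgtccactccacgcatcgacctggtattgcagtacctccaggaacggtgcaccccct
Gm24265 and Gm24407 are neighbouring snRNA genes, 654 bases apart, with no named relative in the annotation used. Similarity was sought among named genes of that annotation only, so which spliceosomal RNA they belong to was left unassigned here. They are 98.6% identical, and the changes that turn Gm24265 into Gm24407 were G88A and C99A.
Gm24265, chr5:115489459-115489599, plus strand: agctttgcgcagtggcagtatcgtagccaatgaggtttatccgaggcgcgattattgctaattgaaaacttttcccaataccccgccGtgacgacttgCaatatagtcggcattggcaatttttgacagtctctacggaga
Gm24407, chr5:115490254-115490394, plus strand: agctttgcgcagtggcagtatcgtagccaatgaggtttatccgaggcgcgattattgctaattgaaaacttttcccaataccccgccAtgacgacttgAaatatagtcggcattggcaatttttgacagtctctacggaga
Rnu1a1 is a U1 gene, and its capitals mark ACTTACCTG, the stretch that pairs with the 5' splice site. Gm23731 is a U6 relative that lies on the opposite strand of Cd44, and its capitals mark the changes from the U6 gene Rnu6, which were G16A, C37A and C62A.
Rnu1a1, chr11:87422867-87423030, plus strand: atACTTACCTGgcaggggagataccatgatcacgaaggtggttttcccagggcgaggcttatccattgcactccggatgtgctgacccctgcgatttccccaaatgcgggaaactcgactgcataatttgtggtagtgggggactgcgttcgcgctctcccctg
Gm23731, chr2:102897960-102898066, plus strand: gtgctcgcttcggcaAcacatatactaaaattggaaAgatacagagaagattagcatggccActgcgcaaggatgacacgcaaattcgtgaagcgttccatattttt

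Library totals ran from 6.03 M counts (vehicle 7) to 12 M counts (TBT 3), and haemoglobin genes took 28.7% to 50.8% of each. The libraries of TBT 2 and TBT 8 stood apart, with TMM factors of 0.404 and 0.528 (0.736 to 1.58 in the others) and the lowest summed levels of the 4 B cell markers (118 and 184 CPM, against up to 1250 CPM in TBT 7 and 439 to 778 CPM in the vehicle libraries). Their haemoglobin shares were 50.8% and 44.5%, against 28.7% to 44.1% in the others. The vehicle 6 library gave 14% of its counts to Gm23935, a gene typed as miRNA that took at most 0.441% of any other library. The 4 erythroid markers summed to 217000 to 406000 CPM in TBT libraries and 224000 to 329000 CPM in vehicle libraries, so the libraries carried the defining genes of blood. The 3 hepatocyte markers summed to 1.2 to 565 CPM in TBT libraries and 3.13 to 622 CPM in vehicle libraries, and their part in the results was not tested. Values that changed direction or moved by over 1.5 times without TBT 2, TBT 8 and vehicle 6 are also given without them. Levels are CPM, counts scaled to a common library size, on sizes corrected by TMM, a normalization that sets the bulk of genes equal, unless another scale is named.

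The 161 RNAs held 43281 counts in all, and a few RNAs held most of them. The top 2 held 29.9% of these counts, the top 5 held 52.2% and the top 20 held 68.3%, whereas the median RNA had a summed count of 86. Only 10 reached a summed count of 500. The RNAs just inside the threshold were Gm24950 and Gm26254, both snRNAs with a summed count of 50, and those just outside were the snRNA Gm23167 (49) and the snoRNA Gm23908 (48). The rule left out several of the best known genes. Rnu2-10 had a summed count of 35, Snord13 (U13) had 23 and Rnu6 had 1. The U7 gene Rnu7, the U11 gene Rnu11, the U3 genes Rnu3a and Rnu3b, and Snora73a and Snora73b (U17) had no count. Of 98 Snord rows, 57 had no count, as did 24 of 42 Snora rows. Of the 161, 42 had an annotated copy at least 95% identical and 10 an identical one. No source used here says how reads shared by such copies were counted, and whether copies bear on the rows with low or no counts was not tested.

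With the 3 types pooled, whether a row reached 50 counts went with its place in the annotation. Of the small RNA rows inside a gene that passed the filter on low counts (a tested gene), 79 of 760 on the same strand reached 50 counts (10.4%), as did 60 of 310 on the opposite strand (19.4%). Inside untested genes 3 of 243 rows on the same strand reached it (1.23%) and 0 of 218 on the opposite strand. Outside genes 19 of 1412 rows did (1.35%). For snRNA rows inside tested genes the share was 19.1% on the same strand (33 of 173) and 22.2% on the opposite strand (41 of 185). Of the 161, 80 lay in an intron of a gene on the same strand, 60 on the opposite strand of a gene, 2 in an exon and 19 outside genes. No source used here gives the strand setting with which reads were counted, so reads of a gene around a small RNA and reads of the small RNA cannot be told apart, and this holds for the 60 on the opposite strand too.

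**Figure D1:**
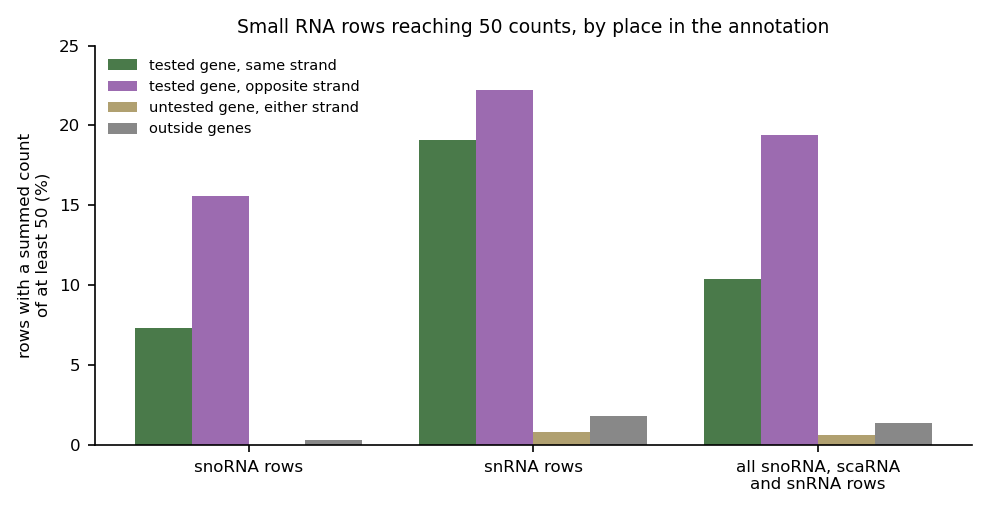
Share of small RNA rows with a summed count of at least 50 (vertical axis, percent of rows), for snoRNA rows, snRNA rows and all rows of the 3 types, by place in the annotation (bars). Over all rows the share was 19.4% on the opposite strand of tested genes, 10.4% on their same strand, 0.651% in untested genes and 1.35% outside genes.

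No small RNA passed the test between TBT and vehicle. Over all 13364 tested genes edgeR's quasi-likelihood test with Benjamini-Hochberg adjustment called 0 (0%) at an adjusted p of 0.05, with 846 genes (6.33%) at an unadjusted p under 0.05. DESeq2 and limma-voom with sample quality weights each called 19 genes (0.142%), none of them a small RNA. Of the 161 RNAs, 44 passed the filter on low counts and were tested, and 117 were not. Of the 44, 23 had a higher estimate in TBT (52.3%, against 59.4% of all tested genes), and the median log2 fold change was 0.06, against 0.05 over all tested genes. At an unadjusted p under 0.05 stood 6 of the 44 (13.6%), of which 2 were higher (4.55%, against 4.57% of all tested genes) and 4 were lower (9.09%, against 1.76%). DESeq2 gave 6 at this level (13.6%, against 7.95% of all tested genes) and limma-voom 7 (15.9%, against 20.3%). The 95% interval of a log2 fold change had a median half-width of 0.69 for the small RNAs, against 0.41 for all tested genes (0.30 to 1.6 for single RNAs). In none of the 161 did the 2 groups fail to overlap, against 0.105% of all 17165 genes with a summed count of at least 50 and 0.112% of the tested genes.

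**Figure D2:**
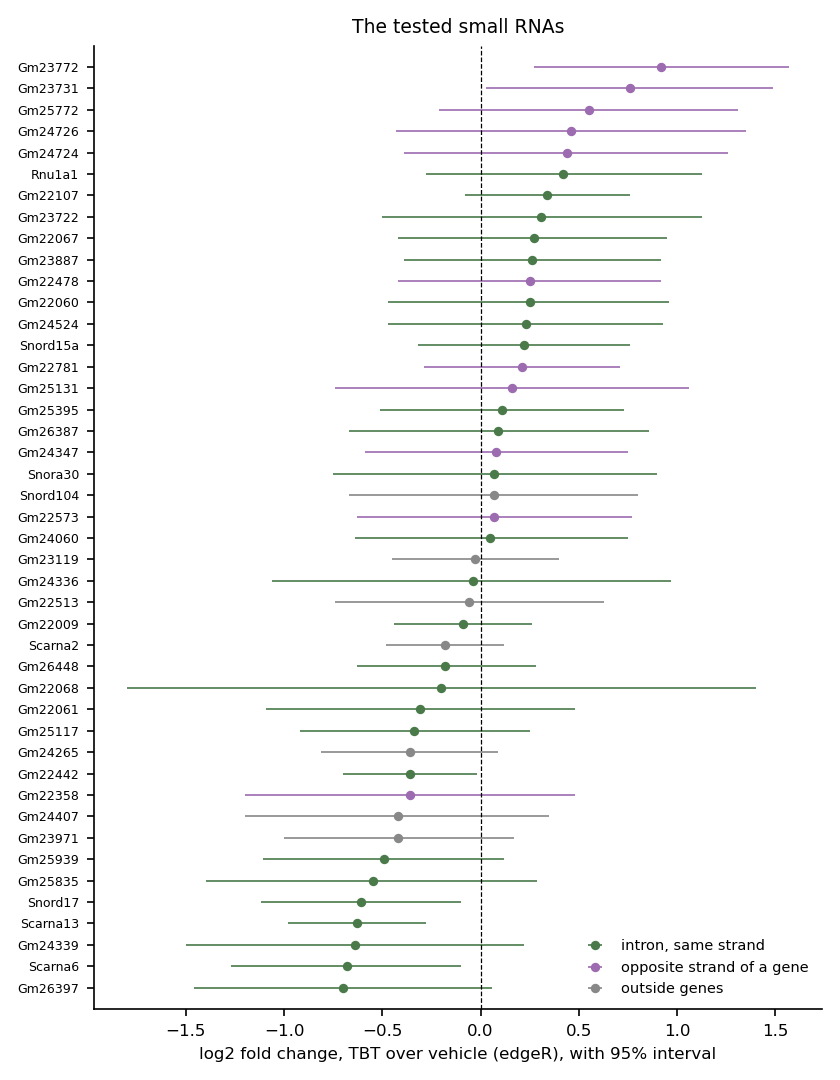
Log2 fold change of TBT over vehicle (horizontal axis, points) with its 95% interval (bars) for the 44 tested small RNAs, coloured by place in the annotation. Estimates ran between -0.70 for Gm26397 (-0.42 without vehicle 1) and 0.92 for Gm23772, and 10 of the 11 on the opposite strand of a gene stood above 0 (59.4% of all tested genes did).

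Cajal body RNAs had a median summed count of 476, the highest of the 5 classes, and 6 of the 7 tested had a lower estimate in TBT (40.6% of all tested genes did), with a median log2 fold change of -0.18. None was called. Their summed level was lowest at 58.6 CPM, median 97.7 CPM and highest 115 CPM in TBT libraries, and lowest at 77.6 CPM, median 106 CPM and highest 128 CPM in vehicle libraries. The groups overlapped widely, and TBT 8 held the lowest sum. The ratio of mean sums, TBT over vehicle, was 0.886, and 0.987 without TBT 2, TBT 8 and vehicle 6, and on CPM of all counts 0.992 and 1.19. The median log2 fold change ran between -0.30 and -0.13 with single libraries left out. With library totals alone as the scale, 4 of the 7 were lower.

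Scarna13 (U93) carries tandem H/ACA parts and in humans guides pseudouridylation of spliceosomal RNAs. It lies in an intron of the noncoding host gene Snhg10. Its level was lowest at 3.61 CPM, median 4.59 CPM and highest 6.84 CPM in TBT libraries, against a lowest of 5.26 CPM, a median of 6.96 CPM and a highest of 11.1 CPM in vehicle libraries. No TBT library reached the vehicle median and all 7 vehicle libraries exceeded the TBT median, but the ranges overlapped, with TBT 5 and TBT 6 above the lowest vehicle library, vehicle 7. The log2 fold change was -0.63 ± 0.165 (SE), with an edgeR adjusted p of 0.557 (unadjusted 0.0013). This was the smallest p among the small RNAs by edgeR, and the adjusted p was 0.0915 by DESeq2 and 0.0767 by limma-voom. Without vehicle 6, the highest library, the log2 fold change was -0.51, and without TBT 2, TBT 8 and vehicle 6 it was -0.50.

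Scarna6 and Gm25395 lie in introns of the autophagy gene Atg16l1, and both have a C box at the start and a D box at the end. Scarna6 was lowest at 0.193 CPM (TBT 8), median 1.08 CPM and highest 1.48 CPM in TBT libraries, and lowest at 1.06 CPM, median 1.80 CPM and highest 2.35 CPM in vehicle libraries. No TBT library reached the vehicle median, and the lowest vehicle library, vehicle 5, fell among the TBT libraries. The log2 fold change of Scarna6 was -0.68 ± 0.279 (edgeR adjusted p = 0.731). That of Gm25395, from the same host gene, was 0.11 ± 0.295 (edgeR adjusted p = 0.988), between -0.01 and 0.24 with single libraries left out. The estimate of Gm25395 turned below 0 by limma-voom and without TBT 2, TBT 8 and vehicle 6. The difference between these RNAs was not tested. Their host gene itself had a log2 fold change of 0.13 ± 0.0955 (adjusted p = 0.9).

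Gm22009 is a scaRNA of 343 bases in an intron of Kpna4, the gene of a nuclear import receptor, and had the most counts of all (8370). It was lowest at 30.1 CPM (TBT 8), median 54.5 CPM and highest 65.7 CPM in TBT libraries, and lowest at 39.1 CPM, median 52.3 CPM and highest 69.5 CPM in vehicle libraries. The groups lay over each other, with a log2 fold change of -0.09 and a 95% interval of -0.44 to 0.26 (edgeR adjusted p = 0.979). Its sign turned to 0.08 with library totals alone and without TBT 2, TBT 8 and vehicle 6, and to 0.06 by limma-voom. Scarna2, which in humans guides methylation of U2, was lowest at 17.7 CPM, median 27.9 CPM and highest 37.2 CPM in TBT libraries and lowest at 22.1 CPM, median 31.8 CPM and highest 36.9 CPM in vehicle libraries. Its log2 fold change was -0.18, with a 95% interval of -0.48 to 0.12 (edgeR adjusted p = 0.92), and it was -0.06 without TBT 2, TBT 8 and vehicle 6. The annotation gives Scarna2 414 bases, whereas RefSeq on the same build gives 61.

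Among the other scaRNAs, Gm22442 lies in an intron of Chd3, a chromatin remodeller. It was lowest at 2.87 CPM, median 3.74 CPM and highest 4.38 CPM in TBT libraries, and lowest at 3.10 CPM, median 4.89 CPM and highest 5.68 CPM in vehicle libraries. Every TBT library stood below the vehicle median, and vehicle 4 and vehicle 5 stood among the TBT libraries. Its log2 fold change was -0.36 ± 0.164 (edgeR adjusted p = 0.762), and that of Chd3 was -0.23 ± 0.0901 (adjusted p = 0.731). Scarna17 did not pass the filter on low counts. It averaged 0.684 ± 0.341 CPM in TBT libraries and 1.17 ± 0.447 CPM in vehicle libraries (SD, n = 8 and 7), and 1 TBT library exceeded the vehicle median.

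Among the C/D box snoRNAs, here those with a symbol beginning Snord, Snord17 stood far above the rest. It lies in an intron of Snx5, a sorting nexin gene, and spans 238 bases. Snord17 was lowest at 7.59 CPM (TBT 2), median 15.6 CPM and highest 24.9 CPM in TBT libraries, and lowest at 15.1 CPM (vehicle 7), median 25.4 CPM and highest 34.5 CPM (vehicle 6) in vehicle libraries. No TBT library reached the vehicle median, and 6 of 7 vehicle libraries exceeded the TBT median. The log2 fold change was -0.61 ± 0.243 (edgeR adjusted p = 0.731), and -0.43 without TBT 2, TBT 8 and vehicle 6. Snx5 had a log2 fold change of -0.02 ± 0.101 (adjusted p = 0.993).

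The other C/D box RNAs had low counts. In the fit without a filter, which includes RNAs too low for the test, 10 of the 11 in the class had an estimate above 0. Of all 41564 genes with a count 45.3% did, but only 17165 genes had a summed count of at least 50, so the sets are unlike in level. Only 3 of the 11 were tested, of which 2 were higher (59.4% of all tested genes were). Snord15a, a guide for methylation of 28S ribosomal RNA in an intron of the ribosomal protein gene Rps3, averaged 2.99 ± 0.969 CPM in TBT libraries and 2.56 ± 0.879 CPM in vehicle libraries. Its log2 fold change was 0.22 ± 0.259 (edgeR adjusted p = 0.964), and it was 0.09 without vehicle 7, 0.11 without TBT 5 and 0.14 without TBT 7. Snord104 averaged 1.54 ± 0.738 CPM in TBT libraries and 1.35 ± 0.820 CPM in vehicle libraries, and its estimate of 0.07 changed sign when single libraries were left out and was -0.23 without TBT 2, TBT 8 and vehicle 6. Snord118 (U8), which is needed for processing of the large ribosomal subunit RNAs, averaged 0.465 ± 0.465 CPM in TBT libraries and 0.361 ± 0.256 CPM in vehicle libraries, so the spread within groups exceeded the difference.

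The class of H/ACA box snoRNAs, here only those with a symbol beginning Snora, had 5 genes and was the scarcest. ACA near the end was present in 34 of all 62 snoRNAs. RNAs of this kind may thus also stand among the models without such a symbol, so this does not show that H/ACA RNAs were scarce. Their summed level averaged 2.82 ± 1.43 CPM in TBT libraries and 3.12 ± 0.842 CPM in vehicle libraries, with TBT 2 (0.876 CPM) and TBT 8 (0.964 CPM) lowest. The ratio of means was 0.902, and it turned to 1.05 without TBT 2, TBT 8 and vehicle 6 and to 1.08 on CPM of all counts. Snora30, the one tested, averaged 0.911 ± 0.659 CPM and 0.954 ± 0.246 CPM in TBT and vehicle libraries, with a log2 fold change of 0.07 and a 95% interval of -0.75 to 0.90. It turned to -0.15 without TBT 1 and stood at 0.32 without TBT 2, TBT 8 and vehicle 6. Snora23 and Snora31 did not pass the filter. The 46 snoRNA models without a Snord or Snora symbol summed to 34.7 ± 4.63 CPM in TBT libraries and 33.9 ± 6.15 CPM in vehicle libraries, and 7 of 14 tested were higher. Among them Rnu73b averaged 0.330 ± 0.263 CPM in TBT libraries and 0.220 ± 0.173 CPM in vehicle libraries. Gm26448, in an intron of the ribosomal protein gene Rpsa, is 89.1% identical to Snora73b over the aligned bases, and its log2 fold change was -0.18 ± 0.217 (edgeR adjusted p = 0.964), and -0.06 without vehicle 2.

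**Figure D3:**
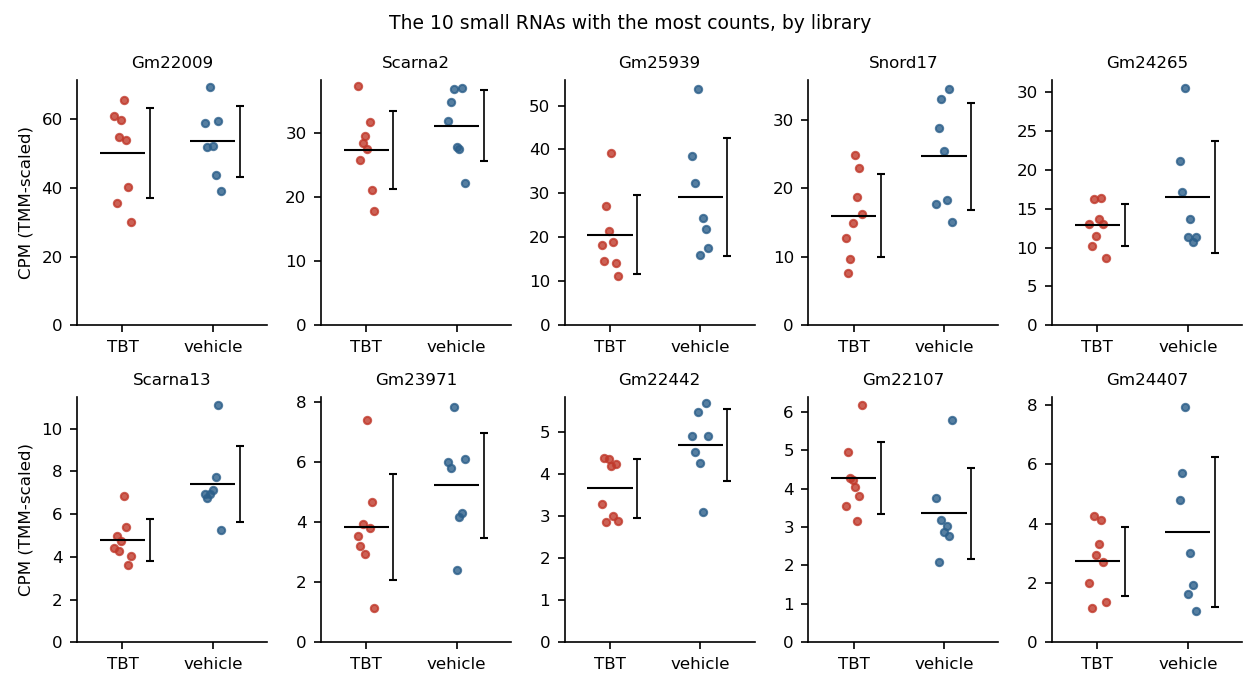
Level of the 10 small RNAs with the most counts (vertical axes, CPM on TMM-scaled sizes), 1 point per library, TBT left (8 libraries) and vehicle right (7 libraries). Lines mark group means and bars their SD. Scarna13 and Snord17 had no TBT library at the vehicle median, and Gm22009 shows groups that lie over each other.

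Among the spliceosomal RNAs, a copy of U2 had the most counts. U2 pairs with the branch site of the intron. Gm25939, the U2 copy that differs from Gm23971 at 3 bases, held 73.5% of the counts of the 10 U2-related RNAs. It was lowest at 11.2 CPM (TBT 8), median 18.6 CPM and highest 39.3 CPM (TBT 5) in TBT libraries, and lowest at 16 CPM, median 24.5 CPM and highest 53.7 CPM (vehicle 3) in vehicle libraries. The groups overlapped over most of their range, and the log2 fold change was -0.49 ± 0.289 (edgeR adjusted p = 0.861). Without vehicle 3 it was -0.29. Its host gene D230017M19Rik averaged 1.77 ± 0.572 CPM in TBT libraries and 1.99 ± 0.557 CPM in vehicle libraries. Gm23971, identical to Rnu2-10, had a log2 fold change of -0.42 ± 0.278 (adjusted p = 0.874), and -0.64 without TBT 5. Gm24950, also identical to Rnu2-10, went the other way, at 0.407 ± 0.204 CPM in TBT libraries and 0.166 ± 0.167 CPM in vehicle libraries. It was not tested. Reads that lie within identical copies cannot be told apart, so the values of Gm23971 and Gm24950 are not levels of single genes.

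Gm24265 was lowest at 8.68 CPM, median 13.1 CPM and highest 16.4 CPM in TBT libraries, and lowest at 10.7 CPM, median 13.7 CPM and highest 30.5 CPM (vehicle 3) in vehicle libraries. Vehicle 1, vehicle 2 and vehicle 3 stood above every TBT library, and the other vehicle libraries lay within the TBT range. Its log2 fold change was -0.36 ± 0.213 (edgeR adjusted p = 0.861), and -0.16 without vehicle 3. Its neighbour Gm24407, which differs from it at 2 bases, had -0.42 ± 0.368 (adjusted p = 0.938), and -0.13 without vehicle 3.

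The U1-related RNAs numbered 11, namely Rnu1a1 and snRNAs whose nearest named RNA was a U1 gene over at least 50 aligned bases. No limit was set on identity, which was 74.4% in Gm24524, and RefSeq types Gm22847 as a pseudogene, so not all are U1 genes. Rnu1a1, in an intron of Tex14, was lowest at 0.772 CPM, median 1.67 CPM and highest 2.14 CPM in TBT libraries and lowest at 0.177 CPM, median 1.25 CPM and highest 1.93 CPM in vehicle libraries. The ranges overlapped, and the log2 fold change was 0.42 ± 0.337 (edgeR adjusted p = 0.919), and 0.20 without vehicle 5, its lowest library. Gm22068, Gm22317 and Gm25679 have the same sequence as Rnu1a1 to the base, yet their counts followed no common course over the libraries. Gm25679 had 106 counts in vehicle 3 and 0 in each of the other 14 libraries. Gm22068 had between 0 and 89 counts in TBT libraries and between 0 and 92 in vehicle libraries, with 89 in TBT 5 and 92 in vehicle 3, whereas Rnu1a1 had 4 to 27 counts in TBT libraries and 2 to 15 in vehicle libraries. Identical copies cannot be told apart by reads that lie within them, so these values are not levels of single genes. Gm22068 and Gm22317 were singled out after their values were seen.

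Of the minor spliceosome and U5, Rnu12 (U12) averaged 0.707 ± 0.355 CPM in TBT libraries and 0.332 ± 0.438 CPM in vehicle libraries. All 8 TBT libraries exceeded the vehicle median of 0.175 CPM and 1 vehicle library, vehicle 6, exceeded the TBT median. It did not pass the filter on low counts and was not tested. Rnu5g (U5) averaged 0.389 ± 0.341 CPM and 0.239 ± 0.187 CPM in TBT and vehicle libraries.

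Most of the 54 U6-related RNAs had a higher estimate in TBT. U6 pairs with the 5' splice site and with U2 in the active spliceosome. U6-related here means an snRNA whose nearest named RNA had a symbol beginning Rnu6, over at least 50 aligned bases. No limit was set on identity, which was 67.3% in Gm24060, and RefSeq types some of them, such as Gm22107, as pseudogenes. The 54 share members, such as Gm23731 and Gm25772, with the 60 on the opposite strand of a gene, so the 2 results are not independent. Their summed level was lowest at 32.0 CPM, median 40.9 CPM and highest 48.0 CPM in TBT libraries, and lowest at 27.6 CPM, median 29.2 CPM and highest 45.9 CPM in vehicle libraries. All 8 TBT libraries exceeded the vehicle median, and vehicle 7 alone exceeded the TBT median. The ratio of mean sums was 1.24, 1.27 without TBT 2, TBT 8 and vehicle 6, and 1.38 on CPM of all counts. Of the 8 tested, 7 had an estimate above 0 with a median of 0.26, and none was called. It was 5 of 8 without TBT 1 and 6 of 9 with a median of 0.16 without vehicle 3, the median was 0.13 without vehicle 4, and it was 6 of 8 with a median of 0.14 with haemoglobin genes left out. In the fit without a filter 41 of 54 were above 0. All 41564 genes with a count had a median log2 fold change of -0.06 there, with 45.3% above 0. Only 17165 genes had a summed count of at least 50, so the sets are unlike in level. Among all tested genes in the main fit 59.4% were above 0.

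Estimates were also set out by place in the annotation. The 60 RNAs on the opposite strand of a gene summed to a lowest of 32.6 CPM (TBT 8), a median of 46.1 CPM and a highest of 50 CPM (TBT 5) in TBT libraries, and to a lowest of 24.5 CPM (vehicle 6), a median of 32.1 CPM and a highest of 37.8 CPM (vehicle 1) in vehicle libraries. All 8 TBT libraries stood above the vehicle median and no vehicle library reached the TBT median, although the ranges overlapped. The ratio of mean sums was 1.36, 1.4 without TBT 2, TBT 8 and vehicle 6, and 1.51 on CPM of all counts. In the fit without a filter 50 of the 60 had an estimate above 0 with a median log2 fold change of 0.50, and of the 11 tested 10 were higher with a median of 0.25. With single libraries left out the median ran between 0.16 (without vehicle 7) and 0.39 (without vehicle 1), and the lowest counts were 8 of 11 without TBT 7 and 8 of 12 without vehicle 5. The 80 RNAs in introns on the same strand had 43 estimates above 0 and a median of 0.04, and of the 19 outside genes 7 were above 0, with a median of -0.12. Of all tested genes 59.4% were above 0, and in the fit without a filter 45.3% of all 41564 genes with a count were. Those genes are unlike the small RNAs in level. No test was made over these groups, and RNAs near the minimum summed count can reach it through counts in a single group.

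**Figure D4:**
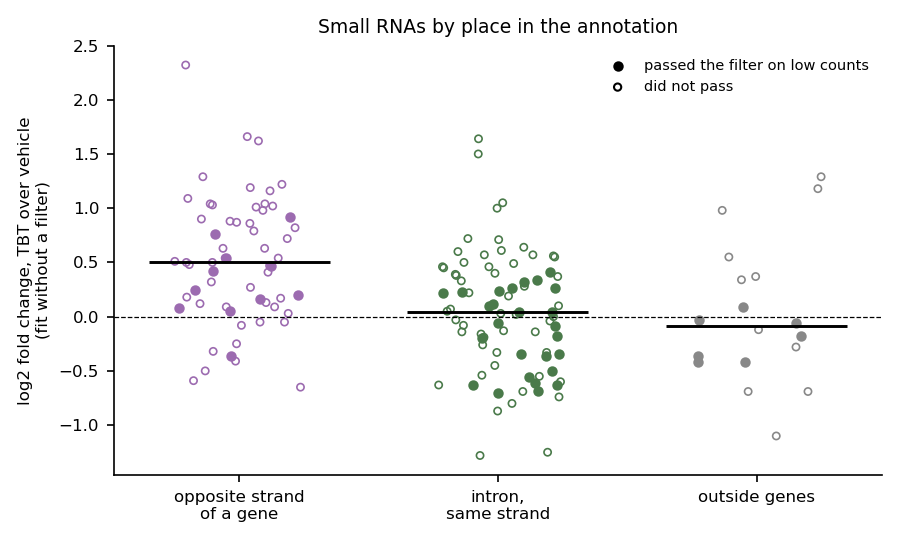
Log2 fold change of TBT over vehicle in the fit without a filter (vertical axis) by place in the annotation, 1 point per small RNA, filled where it passed the filter on low counts, with the median as a line. The median was 0.50 for the 60 on the opposite strand of a gene and 0.04 for the 80 in introns, and Gm25679, with counts in a single library, is left out of those outside genes.

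The genes that contain the 60 RNAs on the opposite strand had a median log2 fold change of 0.08 in the main fit. In the fit without a filter, 47 of the 60 small RNAs had a higher estimate than the gene around them had in the main fit. The median over all genes was 0.05 in the main fit and -0.06 without a filter, and most of the 60 had low counts, so the 2 sides of this count are unlike. Other gene types were set beside them from the main fit, where the 11 tested RNAs on the opposite strand had a median of 0.25. Of the 88 tested genes typed as sense intronic, 75 had an estimate above 0 with a median of 0.30, as did 571 of 669 genes typed TEC, a biotype for loci that await experimental evidence, also with a median of 0.30. Genes typed antisense had a median of 0.13, with 281 of 421 above 0, and lincRNAs one of 0.12, with 218 of 327 above 0. Protein-coding genes had a median of 0.03, with 6409 of 11149 above 0. The part of intronic RNA in these estimates was not tested.

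Among the 11 tested RNAs on the opposite strand, the largest estimates were those of Gm23772 and Gm23731. In the fit without a filter, estimates of untested RNAs with low counts in this group reached 2.32. Gm23772, a snoRNA model opposite B3gnt2, was lowest at 0.699 CPM (TBT 3), median 1.43 CPM and highest 2.60 CPM (TBT 7) in TBT libraries, and lowest at 0.486 CPM, median 0.693 CPM and highest 1.13 CPM (vehicle 1) in vehicle libraries. All 8 TBT libraries exceeded the vehicle median and no vehicle library reached the TBT median, although TBT 1 and TBT 3 fell within the vehicle range. The log2 fold change was 0.92 ± 0.311 (edgeR adjusted p = 0.708), and that of B3gnt2 was -0.32 ± 0.207 (adjusted p = 0.872).

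Gm23731, the U6 relative opposite Cd44, the gene of a hyaluronan receptor of white cells, was lowest at 1.21 CPM, median 1.94 CPM and highest 4.89 CPM (TBT 3) in TBT libraries, and lowest at 0.416 CPM (vehicle 6), median 1.62 CPM and highest 2.44 CPM in vehicle libraries. The ranges overlapped between 1.21 and 2.44 CPM. Its log2 fold change was 0.76 ± 0.348 (edgeR adjusted p = 0.768), and 0.53 without TBT 3, while Cd44 had 0.14 ± 0.262 (adjusted p = 0.979). Gm25772, opposite Cdc42, and Gm24724, opposite Add3, had log2 fold changes of 0.55 ± 0.362 and 0.44 ± 0.393 (adjusted p = 0.872 and 0.942). Gm25772 stood at 0.92 without vehicle 7, and Gm24724 at 0.20 without TBT 6 and 0.24 without vehicle 3. The U6 relative Gm22107 lies on the same strand in an intron of Myh9, the gene of a nonmuscle myosin heavy chain. It averaged 4.27 ± 0.936 CPM in TBT libraries and 3.36 ± 1.18 CPM in vehicle libraries, with a log2 fold change of 0.34 ± 0.201 (adjusted p = 0.863), and 0.18 without TBT 2, TBT 8 and vehicle 6.

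Estimates were set out by level as well. All 6 RNAs with a mean of at least 5 CPM, namely Gm22009, Scarna2, Gm25939, Snord17, Gm24265 and Scarna13, had an estimate below 0 with a median of -0.43, except that Gm22009 was above 0 with library totals alone, by limma-voom and without TBT 2, TBT 8 and vehicle 6. The median was -0.23 without vehicle 3, the animal labelled with a tumor. They held 54.3% of all counts of the 161 RNAs. Their summed level was lowest at 88.0 CPM, median 141 CPM and highest 178 CPM in TBT libraries, and lowest at 110 CPM, median 172 CPM and highest 230 CPM in vehicle libraries. The ratio of mean sums was 0.811, and 0.901 without the 3 libraries. Among the 122 RNAs with a mean under 1 CPM, 81 had an estimate above 0 in the fit without a filter, with a median of 0.34. RNAs near the minimum summed count can reach it through counts in a single group, and TBT holds 8 of the 15 libraries. No share over all genes of like level is given, so these values cannot be read as a difference between groups.

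Per length, the most abundant RNAs were Gm22009 at 146 CPM per kb in TBT libraries and 156 CPM per kb in vehicle libraries, and Gm25939 at 108 CPM per kb in TBT libraries and 153 CPM per kb in vehicle libraries. Gm24265 stood at 91.3 CPM per kb in TBT libraries and 117 CPM per kb in vehicle libraries, and Snord17 at 67.1 CPM per kb in TBT libraries and 104 CPM per kb in vehicle libraries. Scarna2 followed at 66.1 CPM per kb in TBT libraries and 75.0 CPM per kb in vehicle libraries. The order of the first 5 by the mean over libraries was Gm22009, Gm25939, Gm24265, Snord17 and Scarna2. These values use the GENCODE lengths. RefSeq gives 61 bases against 414 for Scarna2 and 221 against 238 for Snord17, so the order, above all the place of Scarna2, depends on the annotation.

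The sum over all 161 RNAs did not separate the groups on either scale. On CPM of all counts it was lowest at 83.9 (TBT 2), median 346 and highest 430 (TBT 5) in TBT libraries, and lowest at 198 (vehicle 4), median 267 and highest 507 (vehicle 3) in vehicle libraries. On TMM-scaled sizes it averaged 258 ± 49.3 CPM in TBT libraries and 282 ± 51.0 CPM in vehicle libraries (SD, n = 8 and 7). The ratio of means was 0.917 on TMM-scaled sizes and 1.02 on all counts, and 0.992 and 1.19 without TBT 2, TBT 8 and vehicle 6.

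**Figure D5:**
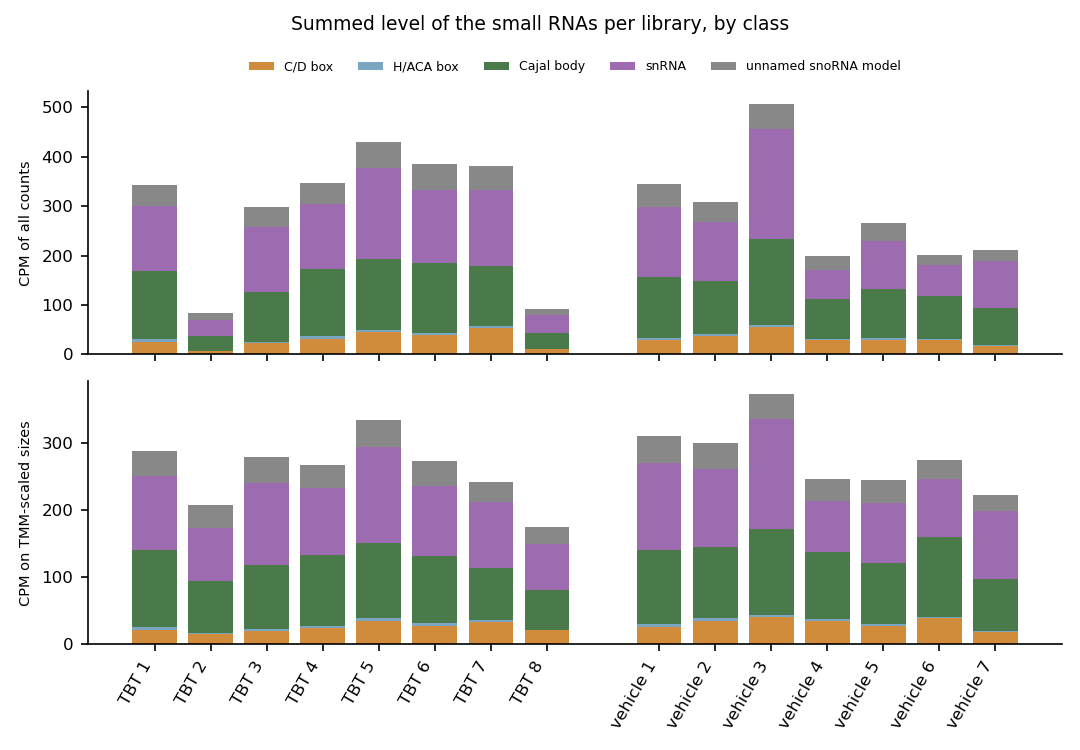
Summed level of the 161 small RNAs in each library (vertical axes, CPM of all counts above and CPM on TMM-scaled sizes below), stacked by class, TBT libraries left and vehicle libraries right. On all counts TBT 2 (83.9) and the library of vehicle 3 (507) are the extremes, and on TMM-scaled sizes the groups average 258 and 282 CPM.

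The proteins that build, modify and carry these RNAs showed no call. Of 137 tested genes in 12 lists, which covered snoRNP cores and assembly, the Cajal body and SMN complex, spliceosomal proteins, snRNA transcription and processing, the exosome and noncoding host genes, 61 had an estimate above 0 (44.5%, against 59.4% of all tested genes), with a median log2 fold change of -0.02. None was called (smallest edgeR adjusted p 0.703), and 4 higher (2.92%, against 4.57% of all tested genes) and 2 lower genes (1.46%, against 1.76%) stood at an unadjusted p under 0.05. The higher ones were Ints2 (Integrator subunit for snRNA 3' ends) at 0.29 ± 0.0972, Phax (snRNA export adaptor) at 0.34 ± 0.134, Naf1 (H/ACA assembly factor) at 0.37 ± 0.175 and the host gene Epb41l4aos at 0.61 ± 0.252, all as log2 fold change ± SE. The lower ones were Sf3b5, a protein of the U2 particle, at -0.60 ± 0.247 and the host gene Snhg6 at -0.51 ± 0.234. The core proteins of C/D RNPs (Fbl, Nop56, Nop58 and Snu13) had a median log2 fold change of -0.10, and those of H/ACA RNPs (Dkc1, Nhp2, Nop10 and Gar1) one of -0.12.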

How the data were processed

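Per the labels' protocols, RNA was isolated on RNeasy columns with DNase treatment, and libraries were made with a stranded total RNA kit of Illumina. Per the submitters' processing notes, Trim Galore, HISAT2 and featureCounts were used with the mouse build mm10. No source used here gives versions, the strand setting or the treatment of reads that map more than once. Per the file headers, the authors deposited whole-number counts per gene, not normalized, with a biotype each. Identifiers and places came from GENCODE M21, which held all 55536 gene IDs.

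Counts were tested with edgeR 4.0.16 (R 4.3.3; filterByExpr, TMM, robust quasi-likelihood, Benjamini-Hochberg over 13364 genes at 0.05). The script was tested on simulated data. DESeq2 1.42.0, limma 3.58.1 (voom) and other scalings, filters and left-out libraries were alternatives. Similarity came from BLAST+ 2.17.0. Nothing says that animals came from separate litters, so p-values measure the spread between these libraries. Named RNAs were those with the 6 smallest p in each direction, the 3 highest per length in each class, set symbols (those beginning Rnu, and known snoRNAs and scaRNAs), those with 1 library over 5 times the next, and those beside the threshold. Other RNAs were singled out by sequence or place after their values were seen. The members and lists were chosen with earlier results of these data known.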

Additional observations from a re-analysis of the deposited data

Results flagged for a closer look

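In 74 sets of values (each named RNA and each class sum, by group) the gap of the highest or lowest library to the next was large against the group's range in 9, or 12.2%. The cutoff would flag about 5% of sets of normally distributed values. Low counts with zeros are not such values, and the class sums contain named RNAs, so these shares cannot be compared. Gm25679 was named for its 1 high library, so its flag was fixed in advance. All values here are CPM. In TBT libraries Snord104 stood at 3.21 in TBT 2 (next 1.74), Snord118 at 1.5 in TBT 6 (next 0.604), and Gm26397 at 0.193 in TBT 8 (next lowest 0.791). In vehicle libraries Gm25679 stood at 7.36 in vehicle 3 (0 in the others), Gm25772 at 4.38 in vehicle 7 (next 2.16), Rnu12 at 1.25 in vehicle 6 (next 0.532) and Scarna13 at 11.1 in vehicle 6 (next 7.72). Scarna17 stood at 2.13 in vehicle 5 (next 1.28), where Snora30 was low at 0.444 (next lowest 0.876).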

How the results depend on the processing

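No small RNA was called under any of 25 alternatives. Over all genes, 0 were called by edgeR with other scalings, with the replicate block and with each library left out in turn (0 to 0), against 19 by DESeq2 and 19 by limma-voom, 2 without a filter (of 41564) and 7 without TBT 2, TBT 8 and vehicle 6. The median log2 fold change of the tested small RNAs, 0.06, was between -0.10 (without TBT 1) and 0.07 (without vehicle 3) with single libraries left out, 0.18 with library totals alone (0.14 over all tested genes), 0.19 over all 161 RNAs without a filter, and -0.41 for the 7 RNAs kept by a minimum mean of 5 CPM of all counts (6 reached it on TMM-scaled sizes), which by construction holds abundant RNAs only. Of 21 named tested RNAs, 18 kept one sign throughout. Gm22009 turned to 0.08 with library totals alone and without the 3 libraries, and to 0.06 by limma-voom. Snord104 turned to -0.02 by limma-voom and -0.23 without the 3 libraries, and ran between -0.10 and 0.36 with single libraries left out. Snora30 ran between -0.15 and 0.16. The cause of these turns was not tested. The summed level, TBT over vehicle, ran between 0.879 and 1.02. A minimum summed count of 20 would give 350 RNAs and one of 100 would give 67. The labels do not say whether the numbers pair animals. Of 7 same-numbered pairs 2 correlated above 0.1 (-0.23 to 0.51), and 1 vehicle library correlated best with its own number. Such correlations cannot decide whether same-numbered animals shared a litter or a processing step. With the replicate block 0 small RNAs were called and the median was 0.08. The scale by CPM of all counts and the set of all 161 RNAs were chosen after seeing the data. Of the 161, 117 were too low for the test. Copies that may share reads limit the values of those RNAs that have them, with 42 having a copy at least 95% identical.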
